A study of Mus musculus with 8 samples.

Results

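The 50 genes described here are those of the unfolded protein response and the integrated stress response, chosen by name from a table of 23100 genes. They fall into an ER arm of 25 genes, which holds the chaperones and folding factors of the endoplasmic reticulum (ER), the stress sensors of its membrane and the machinery of ER-associated degradation (ERAD), and an ATF4 arm of 25 genes, which holds the eIF2 pathway, ATF4 and CHOP with their partners, and known targets. In a model of the group alone, none of the 50 passed the threshold for a change with Zac1. For 43 of them the 95% interval of the change lay within 1.25-fold in either direction, against 9234 of all 14331 tested genes. The tested genes include some with far fewer counts, and genes of similar counts were not compared. A second model added the replicate number that the labels give to both groups as a block. There 1 of the 50 passed (Sdf2l1, lower), against 4.38% of all tested genes in either direction and 0.809% lower. Levels of 12 of the 50 (24%) differed between the replicate numbers, as did those of 14.6% of all tested genes.

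The study transfected Min6 cells, which derive from a mouse beta cell tumour and make insulin, with a plasmid that expresses Zac1 (pRK5-Zac1) or, as the control, with one that expresses an enhanced green fluorescent protein carrying a nuclear localisation signal (pRK5-NLSeGFP). Zac1, a zinc finger protein that binds DNA, is the product of the imprinted gene Plagl1. RNA was prepared 16 h after transfection from 4 cultures per group, numbered 1, 2, 3 and 5 in both groups and called biological replicates in the series' design text. Both groups shared the lipid-mediated transfection and a serum medium that contained the reducing agent beta-mercaptoethanol, and no untransfected cells are among the 8 libraries, so a response to transfection itself was not measured. The labels do not give the share of cells that took up plasmid, and in bulk RNA a response in few cells and a weak response in many cannot be told apart.

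As background, the ER of a beta cell folds large amounts of proinsulin, and unfolded protein there activates the sensors PERK (Eif2ak3), IRE1 (Ern1) and ATF6. ATF6 and the spliced form of XBP1, made by IRE1, raise transcription of ER chaperones and ERAD genes. PERK, like the amino acid sensor GCN2 (Eif2ak4), phosphorylates eIF2, whose alpha subunit is encoded by Eif2s1, and this lowers general translation while favouring translation of ATF4, which acts on genes of amino acid supply and, through CHOP (Ddit3), on genes of cell death. Counts per gene show mRNA amounts, and hold nothing on Xbp1 splicing, phosphorylation or protein.

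Some of the members' promoters hold elements through which the arms are known to be driven. The sequences below are the 250 bases before the transcription start of 6 members (RefSeq, GRCm38.p6, 5′ to 3′ on the gene's strand), with the matched letters in capitals. In the window from 250 bases before to 50 bases after a start, the ER stress element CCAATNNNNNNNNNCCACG, read on both strands, was found in 9 of the 21 ER arm members with an entry (Hspa5, Hsp90b1, Dnajc3, Calr, Canx, Pdia6, Creld2, Syvn1 and Derl3), in 0 of 22 ATF4 arm members with an entry, and in 0.137% of all 27025 genes. Its second form (ATTGG, any 1 base, CCACG) was found in Dnajb11 and Herpud1, against 0.0444% of genes. The CEBP-ATF response element TGATGNAA, through which ATF4 acts, was found in 7 ATF4 arm members (Trib3, Chac1, Vldlr, Asns, Slc7a11, Aars and Gars) and in Herpud1, against 4.51% of genes. TGACGTG, the core of the unfolded protein response element, was found in Hspa5 alone among the members, against 2.22% of genes. Hspa5 is shown as the best known ER target, Creld2 and Derl3 as ER arm members that varied between replicate numbers, Herpud1 because it holds elements of both arms, and Asns and Chac1 as ATF4 targets.
Hspa5 (chr2:34771840-34772089, plus strand): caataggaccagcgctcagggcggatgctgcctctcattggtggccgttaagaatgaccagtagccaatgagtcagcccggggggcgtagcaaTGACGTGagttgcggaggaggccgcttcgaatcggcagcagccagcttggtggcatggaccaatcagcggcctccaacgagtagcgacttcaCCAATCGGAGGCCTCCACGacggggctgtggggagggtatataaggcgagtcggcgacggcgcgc
Creld2 (chr15:88819396-88819645, plus strand): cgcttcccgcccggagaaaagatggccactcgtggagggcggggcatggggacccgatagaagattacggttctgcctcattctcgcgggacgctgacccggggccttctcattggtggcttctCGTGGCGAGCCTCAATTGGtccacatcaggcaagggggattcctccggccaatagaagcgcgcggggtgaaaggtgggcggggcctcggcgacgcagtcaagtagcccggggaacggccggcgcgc
Derl3 (chr10:75893148-75893397, plus strand): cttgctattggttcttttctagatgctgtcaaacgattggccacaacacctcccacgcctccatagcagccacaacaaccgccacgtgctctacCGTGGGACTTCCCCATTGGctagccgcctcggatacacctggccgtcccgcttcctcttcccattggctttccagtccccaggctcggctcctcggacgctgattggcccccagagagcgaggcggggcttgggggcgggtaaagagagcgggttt
Herpud1 (chr8:94386179-94386428, plus strand): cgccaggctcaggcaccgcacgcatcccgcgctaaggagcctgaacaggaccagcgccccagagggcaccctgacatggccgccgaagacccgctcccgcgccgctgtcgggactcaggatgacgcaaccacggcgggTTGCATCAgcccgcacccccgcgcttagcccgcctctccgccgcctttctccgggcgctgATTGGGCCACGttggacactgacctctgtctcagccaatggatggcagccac
Asns (chr6:7693210-7693459, minus strand): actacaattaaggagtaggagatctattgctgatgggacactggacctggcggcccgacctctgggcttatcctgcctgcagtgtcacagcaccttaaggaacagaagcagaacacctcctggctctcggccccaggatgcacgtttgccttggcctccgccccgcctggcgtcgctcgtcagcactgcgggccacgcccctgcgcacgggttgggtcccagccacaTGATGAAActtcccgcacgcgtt
Chac1 (chr2:119350992-119351241, plus strand): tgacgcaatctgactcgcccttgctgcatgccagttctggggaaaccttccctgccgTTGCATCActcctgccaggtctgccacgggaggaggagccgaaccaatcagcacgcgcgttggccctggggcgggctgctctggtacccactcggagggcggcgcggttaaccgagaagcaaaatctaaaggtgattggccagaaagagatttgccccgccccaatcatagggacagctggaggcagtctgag
The capitals mark the 7-base core and the ER stress element in Hspa5, the ER stress element on the opposite strand in Creld2 and Derl3, the CEBP-ATF element on the opposite strand and then the second form in Herpud1, and the CEBP-ATF element in Asns and, on the opposite strand, in Chac1. No marked match overlapped another in these 6. A match is a description of the letters and not a measured site.

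The control libraries held 30.5 to 35.0 M (mega) counts each and the Zac1 libraries 34.7 to 42.4 M. Plagl1, the transfected gene, stood at 78.4, 67.7, 79.5 and 85.4 counts per M counts of the library (CPM, on TMM-scaled totals) in control replicates 1, 2, 3 and 5 and at 5788, 4249, 4119 and 4370.0 CPM in the Zac1 replicates, in that order, which is also the order used for all genes below. This was a 59.6-fold difference (edgeR adjusted p = 1.45e-09), in which plasmid-derived and endogenous reads are counted together. All 12 beta cell markers were detected in every library, at a summed level of 58121 to 74509.8 CPM in the control and 60569 to 67800.0 CPM in the Zac1 libraries. Of 16 markers of other islet, acinar, blood, endothelial and stromal cells, Prss1, Amy2a5, Cdh5 and Lum had 0 counts in every library, and nearly all of the summed level of 1247 to 1686 CPM in the control and 1341 to 2135 CPM in the Zac1 libraries was Gcg, the glucagon gene. In bulk samples fewer cells of a type and less RNA per cell cannot be told apart.

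The ER arm was well expressed in control cells, while the ATF4 arm ran from 0.425 (Cebpb) to 144 CPM per kb of transcript (Nars). All 50 members passed the filter on low counts, and apart from Cebpb each had at least 163 counts in every library. Per kb of transcript, the highest control levels were those of ER chaperones: 1167 ± 161 CPM per kb (SD, n = 4) for Hsp90b1, the ER form of HSP90, 840.1 ± 31.1 for Calr, the lectin chaperone calreticulin, 571 ± 24.7 for the disulfide isomerase Pdia6 and 566 ± 22.3 for Hspa5, the ER HSP70 known as BiP. The SD ranges of Pdia6 and Hspa5 overlapped, as did those of Canx, the membrane lectin calnexin (411 ± 16.9 CPM per kb), and Pdia3, the disulfide isomerase that works with both lectins (399 ± 12.7 CPM per kb). The first 7 places of the order were held by ER chaperones, and the next 3, from 144 ± 9.76 for Nars to 140.2 ± 9.54 CPM per kb for Gars, by tRNA synthetases that overlapped within 1 SD. Among transcription factors Atf4 stood at 104 ± 6.32 and Xbp1 at 92.1 ± 4.74 CPM per kb, while Ddit3 stood at 37.9 ± 3.60 CPM per kb. The lowest levels were those of Trib3 (3.46 ± 0.633 CPM per kb), the kinase GCN2 (3.16 ± 0.193), the cystine transporter Slc7a11 (0.615 ± 0.0919) and Cebpb (0.425 ± 0.179). Lengths are those of the longest coding transcript in GENCODE M21, so a gene expressed mainly from a shorter transcript is understated.

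**Figure D1:**
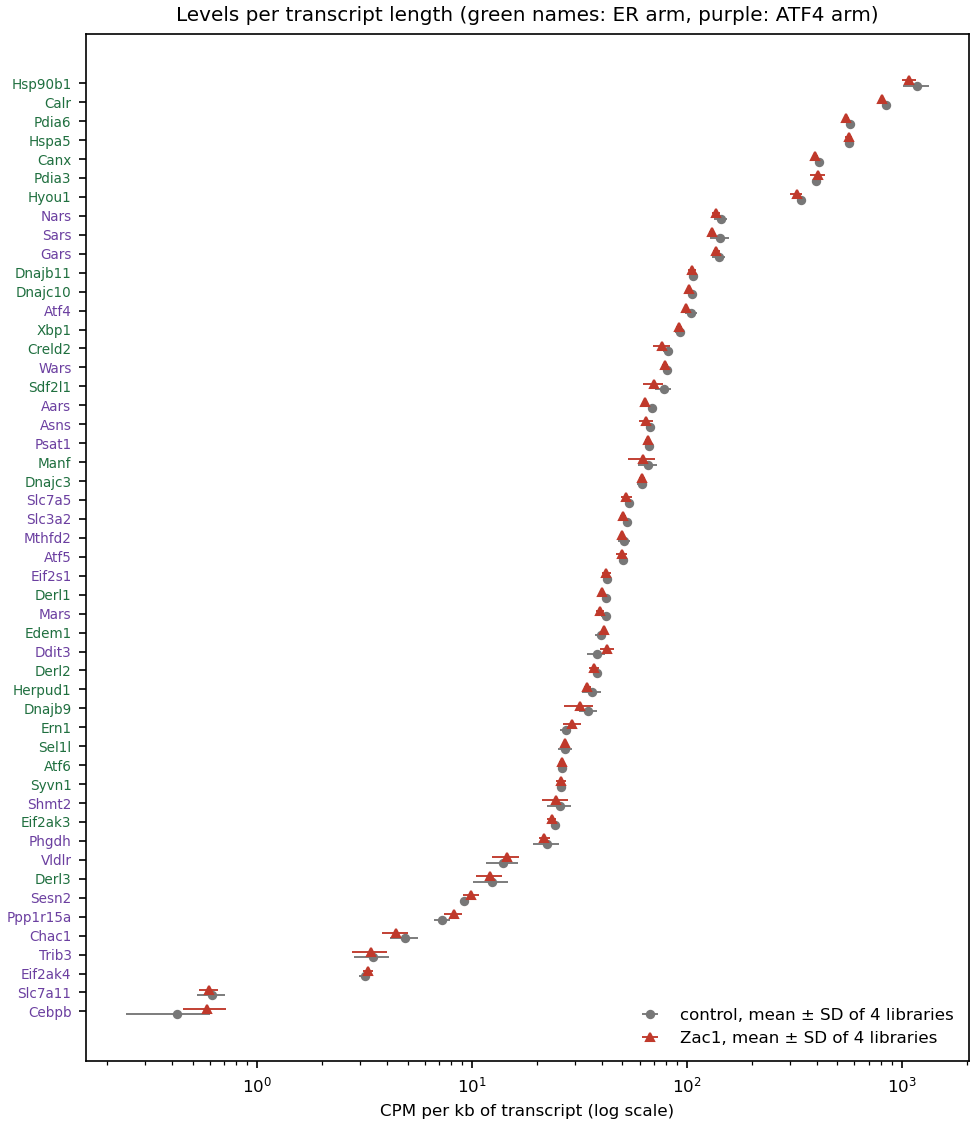
Levels of the 50 members in CPM per kb of transcript (horizontal log axis), with the mean and SD of 4 libraries for the control (grey circles) and Zac1 group (red triangles), ordered by the control mean. ER chaperones such as Hsp90b1 and Calr lie at the top, and Slc7a11 and Cebpb at the bottom. The Zac1 mark lies close to the control mark throughout, with the widest gap at Cebpb.

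The main comparison set Zac1 against control cells for each gene. Of the 50 members, 0 passed the edgeR test (adjusted p threshold 0.05), against 313 of all 14331 tested genes (2.18%), of which 308 were higher (2.15%) and 5 lower (0.0349%). DESeq2 and limma-voom also called 0. At an unadjusted p under 0.05, edgeR with the group alone gave 1 member higher (Ddit3) and 1 lower (Aars), against 7.58% of all tested genes. The second model, which allows for replicate number, put more members under 0.05 by the unadjusted edgeR test. Ern1, Ppp1r15a and Ddit3 were higher there, and Sdf2l1, Dnajb9, Creld2, Manf, Sars, Aars and Mars lower. Their unadjusted p ran from 0.000745 (Sdf2l1) to 0.0434 (Mars), and only Sdf2l1 passed after adjustment. The share of all tested genes under 0.05 in that model was not counted. In the model of the group alone, the 95% interval of the change lay within 1.25-fold in either direction for most members. This held for 24 of 25 ER arm members, all but Dnajb9, and for 19 of 25 ATF4 arm members. The interval lay within 1.5-fold for all members except Cebpb. Of all 14331 tested genes, 9234 lay within 1.25-fold and 11796 within 1.5-fold. These include genes with far fewer counts than most members, and genes of similar counts were not compared. The median log2 change was -0.04 in the ER arm and -0.04 in the ATF4 arm, against -0.01 over all tested genes. In the ER arm 18 of 25 fitted changes were below 0 and in the ATF4 arm 19 of 25, against 54.2% of all tested genes. Of 2 further lists described below, 78.2% of the other ER genes and 75% of the other stress response genes were below 0. The share was thus not particular to the 2 arms. With library totals in place of TMM scaling the counts of the 2 arms were 15 and 17. Without control replicate 1 the ER arm count was 14 and its median -0.0130, without Zac1 replicate 5 its median was -0.0200, and without control replicate 3 the ATF4 arm count was 13 and its median -0.00102.

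**Figure D2:**
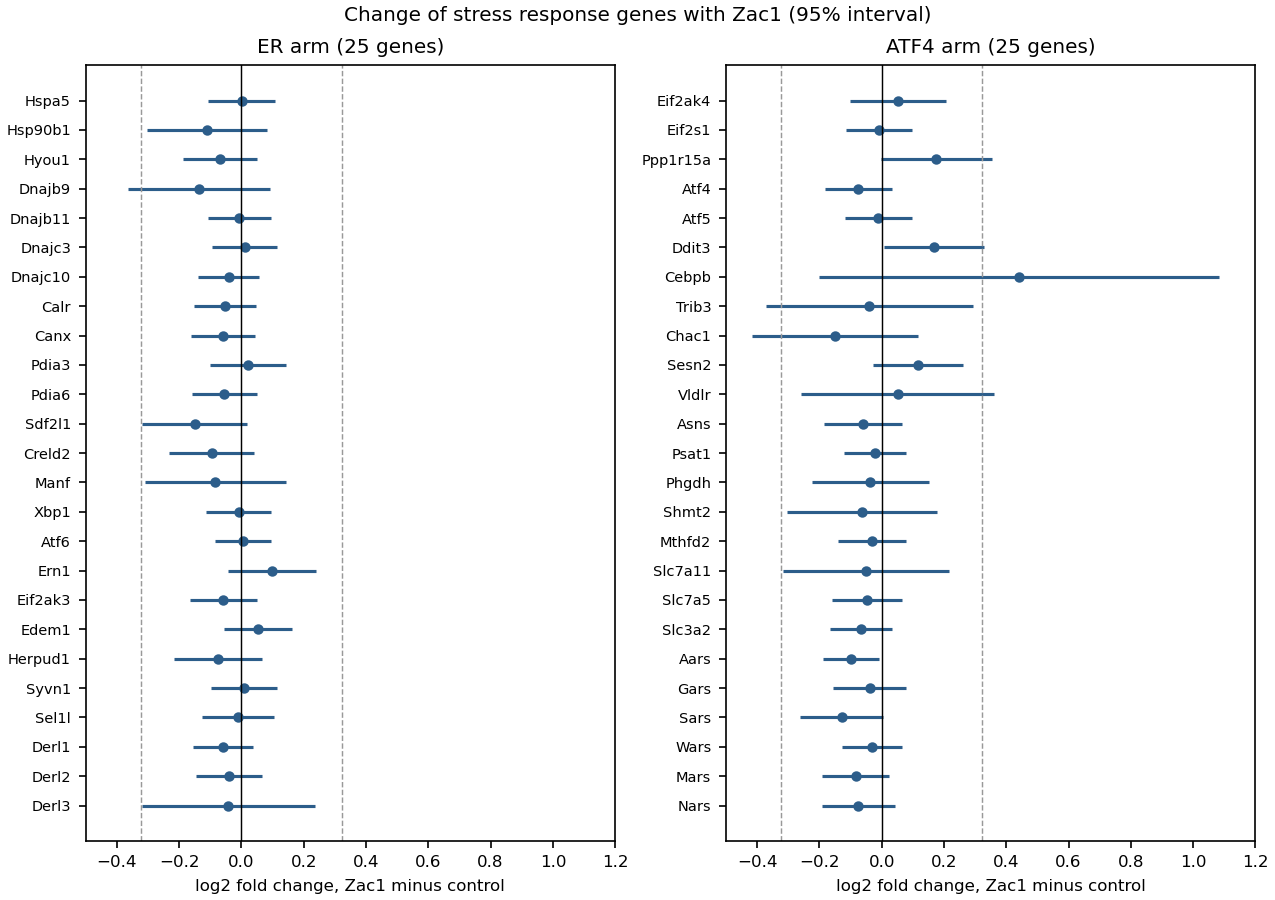
Fitted log2 fold change of each member, Zac1 minus control (points), with its 95% interval from edgeR (bars), for the ER arm on the left and the ATF4 arm on the right, 4 libraries per group. Dashed lines mark a 1.25-fold change in either direction, and the interval of Cebpb, the least expressed member, is the widest.

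Among ER chaperones, Hspa5 was measured at 2190.2, 2049.7, 2071 and 1997 CPM in the control and 2096, 1972, 2086 and 2161 CPM in the Zac1 libraries. The 2 groups covered nearly the same range, and the log2 change was 0.00 ± 0.05 (SE, 95% interval -0.11 to 0.11). Hsp90b1 had the widest spread of the large chaperones, with 3611, 2763, 3735 and 3076 CPM against 3248, 2811, 2929 and 3233 CPM. In both groups its replicate 2 was the lowest, and its log2 change was -0.11 ± 0.09. Calr (-0.05 ± 0.05), Canx (-0.06 ± 0.05), Pdia3 (0.02 ± 0.06), Pdia6 (-0.05 ± 0.05) and Hyou1, the ER HSP110 (-0.07 ± 0.06), likewise did not pass the test, nor did the J proteins Dnajb11 (-0.01 ± 0.05), Dnajc3 (0.01 ± 0.05) and Dnajc10 (-0.04 ± 0.05), which are cochaperones of BiP.

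Folding factors with lower levels came next. Sdf2l1, which works with the J proteins of the ER, had the smallest p of the ER arm, at 94.1, 82.2, 89.9 and 77.8 CPM in the control and 87.7, 74.8, 79.6 and 67.9 CPM in the Zac1 libraries. The groups overlapped, replicate 5 was the lowest of each, and the log2 change was -0.15 ± 0.08 (edgeR adjusted p = 0.752). Over 16 alternative settings its adjusted p ran from 0.0224 to 0.9995 and was past the threshold in 1. That setting was the model with the replicate number as a block, where its log2 change was -0.15 ± 0.04. Creld2, an ER protein with disulfide isomerase activity, stood at 118, 107, 115 and 107 CPM against 117, 104, 103 and 94.0 CPM. Its groups overlapped too, and the log2 change was -0.10 ± 0.06 (edgeR adjusted p = 0.859). Dnajb9, the J protein ERdj4, had 97.4, 79.4, 83.9 and 81.3 CPM against 92.0, 80.0, 75.5 and 63.6 CPM, a log2 change of -0.14 ± 0.10 with the lowest lower limit of the arm (95% interval -0.36 to 0.09). Manf, an ER resident and secreted survival factor, had 158, 138, 162 and 131 CPM against 157, 129, 154 and 117 CPM (log2 -0.08 ± 0.10). Replicates 1 and 3 of both groups were above replicates 2 and 5 for Manf. The exons of Manf overlap those of Rbm15b on the same strand, so reads in the shared stretch are uncertain.

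None of the ER stress sensors, nor Xbp1, passed the test. Xbp1 had 207, 202, 190.2 and 185 CPM in the control and 201, 195, 186 and 197 CPM in the Zac1 libraries (log2 -0.01 ± 0.05). Atf6, the membrane-bound sensor that is itself a transcription factor, had 187, 191, 185 and 192 CPM against 184, 187, 192 and 195 CPM (log2 0.01 ± 0.04, 95% interval -0.08 to 0.10). The PERK gene Eif2ak3 had 116, 107, 105 and 111 CPM against 111, 106, 98.7 and 107 CPM (log2 -0.06 ± 0.05). All of these groups overlapped. Ern1, the gene of IRE1, which cuts Xbp1 mRNA, was measured at 199.9, 194, 173 and 191 CPM in the control and 227, 209.9, 188 and 187 CPM in the Zac1 libraries. Zac1 replicates 1 and 2 lay above every control library and replicates 3 and 5 did not, and the log2 change of 0.10 ± 0.07 did not pass (edgeR adjusted p = 0.859).

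Of the ERAD genes, Herpud1, which organises the ubiquitin ligase complex of the ER membrane, had 79.1, 72.6, 67.2 and 62.4 CPM in the control and 69.4, 68.1, 66.2 and 63.6 CPM in the Zac1 libraries (log2 -0.07 ± 0.07). Control replicate 1 was its highest and control replicate 5 its lowest library. Derl1, one of the derlins that form the retrotranslocation channel, had 139.6, 134, 129 and 128 CPM against 127, 126, 131 and 125 CPM (log2 -0.06 ± 0.05, edgeR adjusted p = 0.906). Derl3, the least expressed derlin, had 20.9, 15.3, 15.4 and 14.0 CPM against 19.1, 16.0, 14.4 and 14.3 CPM (log2 -0.04 ± 0.13). In both groups replicate 1 stood above the other 3 libraries for Derl3. The mannosidase-like Edem1 (0.05 ± 0.05), the ubiquitin ligase Syvn1 (0.01 ± 0.05), its partner Sel1l (-0.01 ± 0.05) and Derl2 (-0.04 ± 0.05) had log2 changes on both sides of 0.

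The ATF4 arm begins with eIF2. Eif2s1 had a log2 change of -0.01 ± 0.05 and the GCN2 gene Eif2ak4 one of 0.05 ± 0.07. Ppp1r15a, the stress-induced phosphatase subunit GADD34 that reverses eIF2 phosphorylation, stood at 22.1, 21.7, 19.3 and 18.4 CPM in the control and 26.0, 20.9, 21.7 and 23.5 CPM in the Zac1 libraries. Zac1 replicates 1 and 5 lay above every control library and replicates 2 and 3 did not. Its log2 change was 0.17 ± 0.08 (95% interval -0.0037 to 0.35, edgeR adjusted p = 0.684), and its exons overlap Tulp2 on the opposite strand.

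Atf4 mRNA was 192, 182, 180.2 and 166 CPM in the control and 171, 168, 175 and 169 CPM in the Zac1 libraries. Control replicates 1, 2 and 3 lay above every Zac1 library and control replicate 5 below them, and the log2 change was -0.07 ± 0.05 (edgeR adjusted p = 0.859). Ddit3, the CHOP gene, had 35.8, 32.4, 36.8 and 29.8 CPM against 40.3, 35.5, 35.4 and 40.4 CPM. Zac1 replicates 1 and 5 were its highest libraries and control replicate 5 its lowest, and the log2 change of 0.17 ± 0.07 had an interval of 0.01 to 0.33 (edgeR unadjusted p = 0.0408, adjusted p = 0.607). Ddit3 and the tRNA synthetase gene Mars overlap in exons on opposite strands. Whether counting used strand is not given in the sources used here, so part of the Ddit3 reads may be uncertain. Cebpb, a bZIP partner of CHOP, was barely expressed, at 0.556, 0.824, 0.879 and 0.295 CPM against 0.598, 1.05, 0.964 and 0.899 CPM, with as few as 9 counts in a library. Control replicate 5 was the lowest, and the log2 change of 0.44 ± 0.30 had an interval of -0.20 to 1.08, so that its upper limit reached 2.12-fold. Atf5, a further ATF4 family factor, gave -0.01 ± 0.05.

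The stress effectors come next. Trib3, the pseudokinase induced by CHOP and ATF4, had 7.26, 7.02, 8.45 and 5.33 CPM in the control and 7.53, 6.81, 7.93 and 5.06 CPM in the Zac1 libraries. Replicate 5 was the lowest and replicate 3 the highest in both groups, and the log2 change was -0.04 ± 0.15 (edgeR adjusted p = 0.984). Vldlr, the very low density lipoprotein receptor, had 137, 111, 105 and 92.0 CPM against 136, 114, 115 and 95.7 CPM. Replicate 1 was the highest and replicate 5 the lowest in both groups, and the log2 change was 0.05 ± 0.14. Chac1, which degrades glutathione, gave -0.15 ± 0.12 and Sesn2, an inhibitor of mTORC1, 0.12 ± 0.07.

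Genes of amino acid supply come next. Asns, asparagine synthetase, had 142, 132, 139 and 129 CPM in the control and 128, 117, 138 and 137 CPM in the Zac1 libraries. The groups overlapped, Zac1 replicate 2 was the lowest, and the log2 change was -0.06 ± 0.06 (95% interval -0.18 to 0.06). Shmt2, the mitochondrial serine hydroxymethyltransferase, had 59.6, 58.7, 67.2 and 48.4 CPM against 57.6, 51.2, 65.9 and 49.2 CPM, with replicate 3 highest and replicate 5 lowest in both groups (log2 -0.06 ± 0.11). Its exons overlap Ndufa4l2 on the opposite strand. The serine synthesis enzymes Phgdh (-0.04 ± 0.09) and Psat1 (-0.02 ± 0.05), the folate enzyme Mthfd2 (-0.03 ± 0.05), and the transporters Slc7a11 (-0.05 ± 0.12), Slc7a5 (-0.05 ± 0.05) and Slc3a2 (-0.07 ± 0.05) had log2 changes below 0 under each scaling, and 0 of these passed. Without control replicate 3 the values of Phgdh, Shmt2 and Slc7a11 were above 0, without control replicate 1 those of Phgdh and Psat1, and without Zac1 replicate 5 that of Shmt2.

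The 6 tRNA synthetases, which charge amino acids for translation, all had fitted log2 changes below 0, from -0.13 to -0.03, and 0 passed. Of all tested genes, 54.2% were below 0, as were 78.2% of the other ER genes and 75% of the other stress response genes. The sign of the 6 was the same under every alternative scaling, filter, tool and left-out library that was run, which all reuse the same libraries. Between same-numbered libraries, the log2 difference was above 0 for Wars at number 1 (0.04) and Nars at number 2 (0.11). At number 3 it was above 0 for Gars (0.07) and Mars (0.01). Aars, alanyl-tRNA synthetase, was the single member of the 50 whose groups did not overlap, which was also the case for 5.79% of all tested genes in either direction and for 1.4% with Zac1 below. It had 389, 398, 382 and 400.4 CPM in the control and 359.6, 369.8, 377 and 360.4 CPM in the Zac1 libraries, a log2 change of -0.10 ± 0.04 (edgeR unadjusted p = 0.0365, adjusted p = 0.581). Aars shares exon sequence with Exosc6 on the same strand. Sars, seryl-tRNA synthetase, had 519, 457, 572 and 479 CPM against 466, 454, 455 and 479 CPM. Control replicate 3 was its highest library, the groups overlapped, and the log2 change was -0.13 ± 0.06 (edgeR adjusted p = 0.696). Mars (-0.08 ± 0.05), Nars (-0.07 ± 0.06), Gars (-0.04 ± 0.05) and Wars (-0.03 ± 0.04) had smaller values.

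Other genes of both pathways were read from the same fit. Of 55 other ER genes tested (translocon, signal peptidase, folding and ERAD components), 0 were called by edgeR, DESeq2 or limma-voom in a model of the group alone. Of all 14331 tested genes these tools called 313, 349 and 287, in that order. At an unadjusted p under 0.05 in edgeR with the group alone, 1 of the 55 was higher and 0 lower, against 7.58% of all tested genes. The median log2 change of the 55 was -0.03. With the replicate number as a block, edgeR called 3 of the 55 lower, against 0.809% of all tested genes. These were Atf6b (edgeR adjusted p = 0.000851), Tmbim6 (0.028) and Fkbp2 (0.0341). In the model of the group alone, the smallest p was that of Creb3l1, a membrane-bound relative of ATF6. It stood at 0.790, 1.28, 0.785 and 0.949 CPM in the control and 1.29, 1.39, 1.37 and 1.40 CPM in the Zac1 libraries. Every Zac1 library lay above every control library, though control replicate 2 came close, and the log2 change was 0.51 ± 0.20 (edgeR adjusted p = 0.451). Creb3l1 was the single gene of the 55 whose groups did not overlap, against 5.79% of all tested genes. Fkbp2, an ER prolyl isomerase, had 209, 186, 206 and 170.0 CPM against 191, 175, 167 and 163 CPM, with overlapping groups (log2 -0.15 ± 0.07, edgeR adjusted p = 0.675). Over 16 alternative settings the adjusted p of Fkbp2 ran from 0.0341 to 0.9995 and was past the threshold in 1. That setting was the replicate block, where its log2 change was -0.14.

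Of 48 other integrated stress response genes tested, out of 50 listed, edgeR and limma-voom called 0 and DESeq2 called 1. Of all 14331 tested genes these tools called 313, 287 and 349, in that order. At an unadjusted p under 0.05 in edgeR with the group alone, 1 of the 48 was higher and 1 lower, against 7.58% of all tested genes. The median log2 change of the 48 was -0.05. The gene called by DESeq2 was Atf3, the stress-induced factor that acts with CHOP and ATF4. Atf3 had 6.17, 4.78, 4.96 and 6.05 CPM in the control and 8.56, 6.55, 6.80 and 8.80 CPM in the Zac1 libraries, so that every Zac1 library lay above every control library. Its log2 change was 0.49 ± 0.13, with an edgeR adjusted p = 0.0771. It passed in DESeq2 (adjusted p = 0.0209), with library totals only (edgeR adjusted p = 0.0488) and without the filter (0.0271), while limma-voom gave an adjusted p = 0.115 and leaving out any 1 library gave an edgeR adjusted p from 0.0594 to 0.254. Over all 16 alternative settings the adjusted p of Atf3 ran from 0.000792 to 0.254 and was past the threshold in 4. The lowest was from edgeR with the replicate number as a block, where the log2 change was 0.48. Eif2b4, a subunit of the eIF2B exchange factor, had 52.4, 53.8, 54.1 and 49.8 CPM against 47.6, 48.9, 49.2 and 47.7 CPM. Here every Zac1 library was below every control library, with a log2 change of -0.12 ± 0.05 (edgeR adjusted p = 0.51).

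The labels number the libraries 1, 2, 3 and 5 in each group, and a separate test asked whether a gene's level differed between these numbers once the group was allowed for. The sources used here do not say what same-numbered libraries share. By the edgeR F test of the 3 number coefficients, 2090 of 14331 tested genes differed (14.6%), and 16.6% where only genes with a mean count of 50 or more were tested. Of the members, 12 differed: Dnajb9, Sdf2l1, Creld2, Manf, Ern1, Herpud1 and Derl3 in the ER arm (7 of 25), and Trib3, Chac1, Vldlr, Phgdh and Shmt2 in the ATF4 arm (5 of 25). The chaperone Hsp90b1 just missed the threshold (edgeR adjusted p = 0.0537) and was called in 7 of 15 alternatives. The other chaperones with the highest levels were not among the 12, and nor were Atf4, Ddit3, Asns, or any tRNA synthetase. The ER arm count was 4 without control replicate 1, 3 without Zac1 replicate 1 and 5 without both libraries numbered 5. The ATF4 arm count was 3 without control replicate 2, control replicate 3 or Zac1 replicate 5, and 3 without both libraries numbered 5. Over all genes the count was 1218 without control replicate 1, 1115 without Zac1 replicate 1, 1008 without Zac1 replicate 5 and 339 without both libraries numbered 5.

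**Figure D3:**
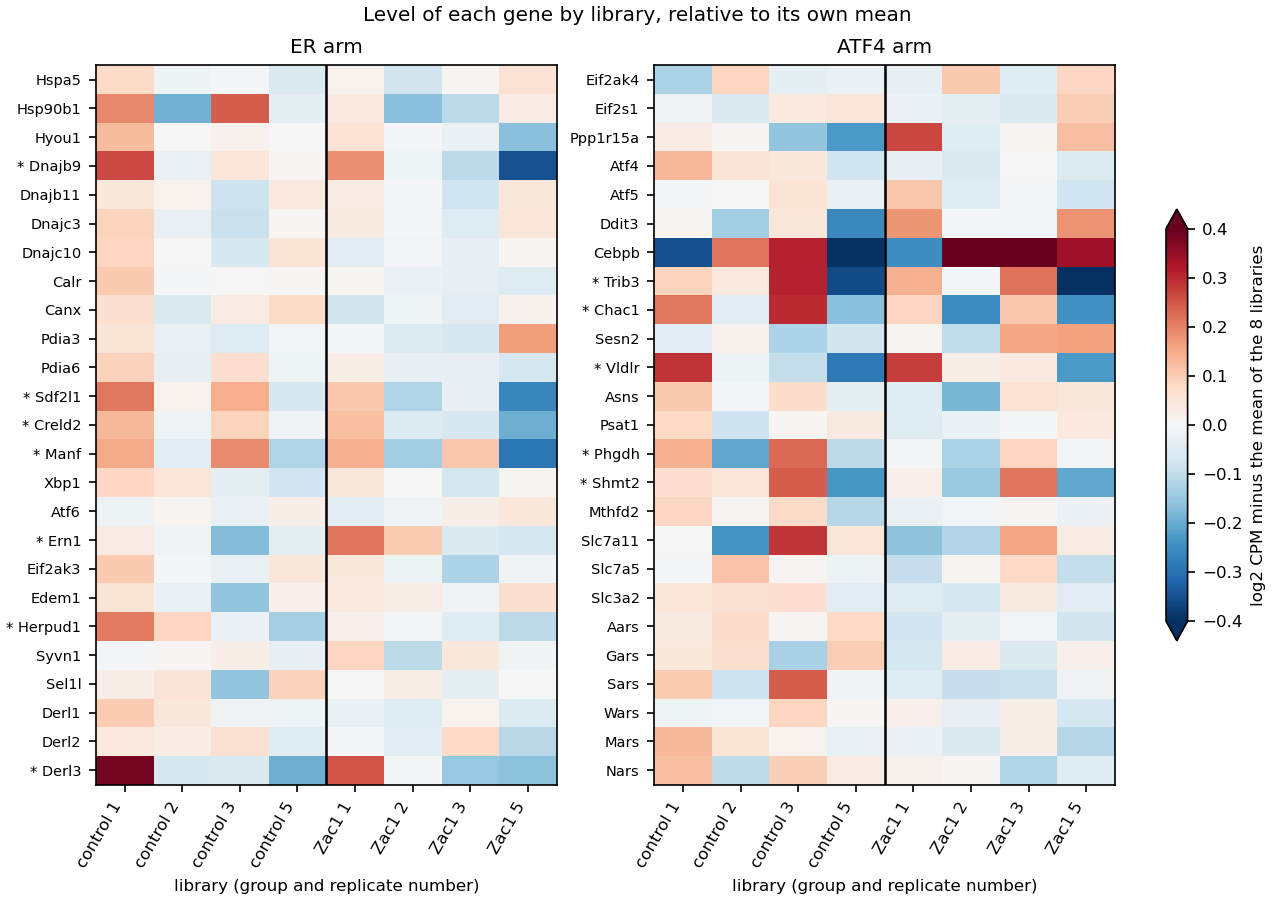
Level of each member in each library as log2 CPM minus the gene's mean over the 8 libraries (colour, red above and blue below), with control libraries to the left of the black line and Zac1 libraries to the right. Asterisks mark the 12 members that differed between replicate numbers, most of which are blue in the replicate 5 columns. Colours past 0.4 in either direction are shown at the end of the scale, which touches Cebpb and Trib3.

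The order of the numbers was not the same for all of the 12. Derl3, Dnajb9 and Vldlr were highest at number 1 and lowest at number 5. As means of the 2 libraries of a number, Derl3 stood at 19.99, 15.7, 14.9 and 14.1 CPM at numbers 1, 2, 3 and 5, a 1.41-fold range (edgeR adjusted p = 0.000866). Dnajb9 stood at 94.7, 79.7, 79.7 and 72.4 CPM (1.31-fold, adjusted p = 0.00137) and Vldlr at 137, 112, 110.2 and 93.9 CPM (1.45-fold, adjusted p = 7.13e-07). In all 7 ER arm members of this set, Zac1 replicate 1 was the highest and Zac1 replicate 5 the lowest of the Zac1 libraries, and control replicate 1 was the highest of its group in 6 of 7. The number term picked these 7 on the same values, so a shared order is partly built in. Over all 25 ER arm members, Zac1 replicate 1 was the highest in 14 and Zac1 replicate 5 the lowest in 12. The order over all genes called by that term was not counted. In the ATF4 arm, Shmt2, Trib3, Chac1 and Phgdh were highest at number 3. Shmt2 stood at 58.6, 55.0, 66.5 and 48.8 CPM (1.36-fold, adjusted p = 0.000104) and Trib3 at 7.39, 6.92, 8.19 and 5.20 CPM (1.58-fold, adjusted p = 0.00417). Manf, of the ER arm, was high at numbers 1 and 3 alike, at 158, 134, 158 and 124 CPM (1.28-fold, adjusted p = 2.45e-05). Hspa5, for comparison, spanned 1.07-fold between numbers (adjusted p = 0.719) and Atf4 1.09-fold (adjusted p = 0.422).

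Between the highest and the lowest number the median range was 1.10-fold in the ER arm and 1.11-fold in the ATF4 arm, against 1.15-fold over all tested genes and 1.13-fold over those with a mean count of 50 or more. The ER stress element was in the promoter window of 2 of the ER arm members that differed between numbers, Creld2 and Derl3, and in that of 7 that were not called, Hspa5 among them, while 4 of the 12 members without it were called. Other measures also moved with the numbers. Gcg stood at 1285, 1396, 1395 and 1901 CPM at numbers 1, 2, 3 and 5, and the beta cell factor Mafa at 7.23, 7.21, 7.45 and 4.19 CPM, both differing between numbers (edgeR adjusted p = 2.86e-05 and 0.00645). The insulin gene Ins2 had 40421, 37988, 43298 and 32709.6 CPM (edgeR adjusted p = 0.013). Iapp, another beta cell marker, differed too but was highest at number 5, at 16930, 15325, 15856 and 18329 CPM (edgeR adjusted p = 0.0458). The remaining beta cell markers did not pass, with edgeR adjusted p from 0.0545 (Ins1) to 0.983 (Slc30a8). Control replicate 5 had the fewest counts of all libraries and Zac1 replicate 5 the most. The part of these in the differences between numbers was not tested.

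**Figure D4:**
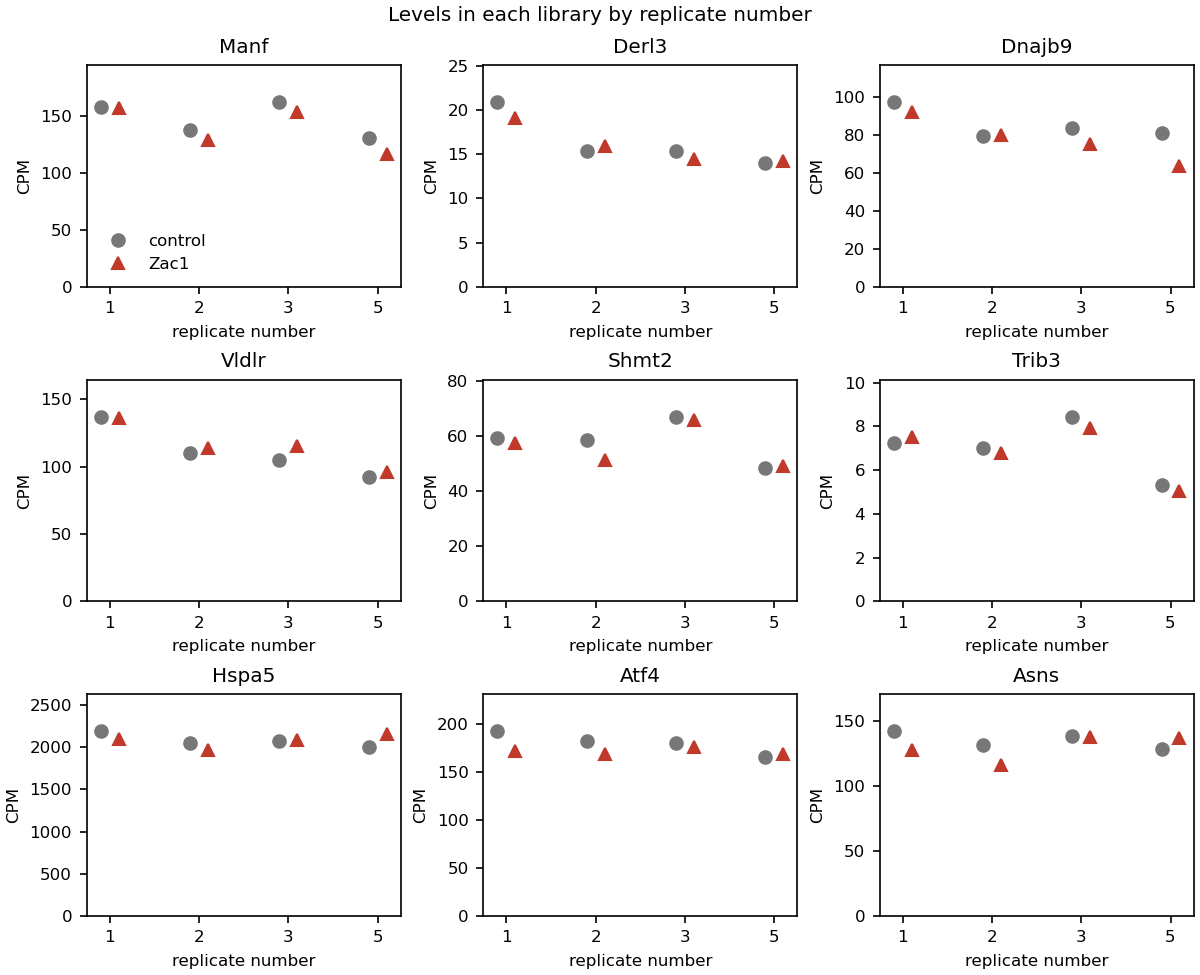
CPM of 9 members in each library (vertical axes start at 0) by replicate number, with control libraries as grey circles and Zac1 libraries as red triangles. The upper 6 genes differed between numbers, with number 5 the lowest for Manf, Derl3, Dnajb9, Vldlr, Shmt2 and Trib3, while Hspa5, Atf4 and Asns in the bottom row did not pass that test.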

How the data were processed

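Counts per gene were analysed for 8 libraries of Min6 cells, 4 per group. The values are whole, unnormalised read counts for 23100 genes, in the single table that the authors deposited. The submitters' processing notes name mm9 as the build and list HTSeq 0.6.1p1, Bowtie2 2.2.8 and TopHat2 2.1.1, beside bcl2fastq 2.17 and FastQC, and libraries were made with a stranded mRNA kit, per the labels' protocols. Not given in the sources used here: which annotation and strand setting the counting used, and how reads matching several places were treated.

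From these counts, genes were kept by filterByExpr (14331) and compared with edgeR 4.0.16 (TMM, robust quasi-likelihood F test, intercept and group, Benjamini-Hochberg over all kept genes, threshold 0.05) in R 4.3.3. A log2 change is Zac1 minus control, with its SE derived from the F statistic and its 95% interval from that SE. The replicate number term was tested in a model with group and number. Library scaling, filters, DESeq2 1.42.0, limma-voom (limma 3.58.1), a replicate block and left-out libraries were alternatives. The steps were tested on simulated counts. Within a group, counts of any pair of libraries differed by more than counting noise (chi-square per degree of freedom 8.91 to 29.8), so none was a copy. P-values measure the spread between these libraries. Promoter windows came from RefSeq (GRCm38.p6), matched by gene ID for 21 and 22 members of the arms, and transcript lengths and overlaps from GENCODE M21, neither of the build mm9. Members and lists were chosen with earlier results of these data known. Values in every library are given for the core regulators and targets, for the 4 members of each arm with the smallest p and the 3 with the largest F of the replicate number term.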

Additional observations from a re-analysis of the deposited data

Results flagged for a closer look

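Of 100 sets of 4 libraries (50 members in each group), 2 held a library far from the other 3, where chance alone flags about 5% of such sets. Both were control replicate 1 and both were ER chaperones. Hyou1 stood at 1619 CPM there, against 1480.4 to 1501 CPM in the other control libraries. Calr stood at 1936 CPM, against 1794 to 1805 CPM. That library was the highest of the controls for 18 of the 25 ER arm members. It also had the highest summed level of the controls for the other ER genes (18102 CPM) and the other stress response genes (4493 CPM). How often it was the highest over all tested genes was not counted.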

How the results depend on the processing

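The count of called members was 0 in each arm under both scalings, both filters, DESeq2, limma-voom, each left-out library and without both libraries numbered 5. The exception was the replicate block. Same-numbered libraries deviated together with correlations of 0.40, 0.06, 0.23 and 0.43 for numbers 1, 2, 3 and 5 over 14331 genes, and control library 2 correlated best with Zac1 library 3 (0.13). The labels give no shared source and 1 of the 4 pairs was under 0.1, so the main model did not pair the libraries by number. The number term still passed for 2090 genes, so the intervals of the main model include spread between numbers. With the replicate block edgeR called 628 genes (4.38% of those tested, 0.809% lower) in place of 313, 1 of them in the ER arm (Sdf2l1, lower, log2 -0.15, edgeR adjusted p = 0.0224), 0 in the ATF4 arm, 3 among the other ER genes and 1 among the other stress response genes (Atf3, higher, log2 0.48, adjusted p = 0.000792). The 3 were lower: Atf6b (log2 -0.22, adjusted p = 0.000851), Tmbim6 (-0.15, 0.028) and Fkbp2 (-0.14, 0.0341). In all 5 of these genes the Zac1 library lay on the same side of the control library at each of the 4 numbers. The blocked fit picked them on these same differences, so this adds no separate evidence. Of all 14331 tested genes, 1436 were below and 1656 above at all 4 numbers. The count among the other stress response genes was also 1 in DESeq2, with library totals only and with no filter. Under the stricter filter, a mean count of 50 or more, 99 were called in all of the 12219 tested, and the cause was not tested. With 1 library left out, all calls numbered 262 to 362, and the median log2 change ran from -0.0478 to -0.0130 in the ER arm and from -0.0546 to -0.0010 in the ATF4 arm. The ER arm median was -0.0230 with library totals only.

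For the replicate number term, leaving out 1 library gave 1008 to 1908 genes in all, 3 to 8 in the ER arm and 3 to 5 in the ATF4 arm. DESeq2 gave 1332 genes in all. Without both libraries numbered 5 the counts were 339 in all, 5 in the ER arm and 3 in the ATF4 arm, where fewer samples and 1 number fewer entered. Only Manf, Vldlr and Shmt2 were called under all 15 alternatives. Depth limits Cebpb, with as few as 9 counts in a library.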
